A study of Mus musculus with 78 samples.

Results

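Livers of untreated control males from 2 mouse stocks were compared, to show how far normal liver transcripts differ between the genetic backgrounds of a single study. The stocks were (C57BL6/JxBALB/cByJ)/F2, whose 3 control libraries carry the submitters' name GHRCON, and (PW/JxC3H/HeJ)/F2, whose 3 control libraries carry the name SNELLCON. These 6 libraries, chosen by their labels, are 6 of the 78 liver libraries of the series, which measured hepatic responses to lifespan-extending interventions in 26 groups of 3. GHRCON mice are the littermate controls of growth hormone receptor knockout mice (GHRKO), and SNELLCON mice those of Snell dwarf mice (SNELL). All 6 were males of 5 months on the Purina 5LG6 diet. The labels do not say which alleles of the 2 mutated genes the controls carried. Stock, colony and litter came together in these groups and cannot be told apart. Differences are log2(GHRCON) minus log2(SNELLCON) ± SE from edgeR, with n = 3 libraries per stock, and levels are CPM, the counts scaled to a common library size.

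An F2 stock is made by crossing 2 inbred strains and then the hybrid offspring, so every mouse carries its own mixture of both parental genomes. A gene at which all alleles of one stock differ from all alleles of the other separates the groups cleanly, while a gene with 2 unlike alleles inside a stock varies from mouse to mouse. C57BL/6J is also the strain of the mouse reference genome and lacks part of Nnt, the mitochondrial nicotinamide nucleotide transhydrogenase. Liver is made up mostly of hepatocytes, which secrete plasma proteins and, in male mice, the major urinary proteins that carry scents in urine. Much of the male pattern of mouse liver depends on pulses of growth hormone.

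The 6 libraries held 15521588 to 18267666 counts. GHRCON libraries had counts in 17339 to 17462 genes and SNELLCON libraries in 16895 to 17060. How well reads of either stock aligned to the reference was not tested. Alb, the serum albumin gene, had 77170, 85300 and 64590 CPM in GHRCON livers, against 64680, 77600 and 91630 CPM in SNELLCON livers. The summed level of 12 hepatocyte markers was 110200 to 123700 CPM in GHRCON and 107500 to 138600 CPM in SNELLCON, and the groups overlapped. Markers of skeletal muscle and of kidney summed to at most 1.06 and 1.52 CPM, with 4 of 9 and 3 of 8 at 0 throughout. Adipose markers summed to 1916 to 4571 CPM in GHRCON and 6208 to 6818 CPM in SNELLCON, and pancreas markers, 7 of 12 at 0, to 22.0 to 42.6 CPM and 73.2 to 82.6 CPM. These sums did not overlap. Only 2 of 7 adipose markers (differences -0.88 and 0.18) and 1 of 12 pancreas markers (-1.12) were tested, and none passed. The sums therefore do not show a shift of either list as a whole, and their part in the results was not tested. The first principal component, with 41.0% of the variance, separated the stocks. On the second (20.9%) GHRCON 3 lay at -31.0, apart from GHRCON 1 and GHRCON 2 at 16.3 and 15.7.

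Of 12445 genes tested, 145 differed between the stocks, which is 1.17% (edgeR quasi-likelihood test, Benjamini-Hochberg adjusted p under 0.05). Of these, 76 (0.611% of genes tested) were higher and 69 (0.554%) were lower in GHRCON. The CPM ranges of the stocks did not overlap in any of the 145, while 2285 of the genes tested (18.4%) did not overlap. The differences were often large: 100 of the 145 reached an absolute log2 difference of 1, 53 reached 2 and 25 reached 4. An unadjusted p under 0.05 was reached by 1567 genes (12.6%), and the difference was positive in 51.3% and negative in 48.7% of all genes tested; counts of this kind in the gene lists are to be read against these shares. The median absolute difference was 1.39 among the genes that passed and 0.15 among all genes tested. The count moved with single libraries. It fell to 84 without GHRCON 1, 92 without GHRCON 2, 97 without SNELLCON 1, 91 without SNELLCON 2 and 77 without SNELLCON 3. It rose to 212 without GHRCON 3. A fit of all 12 libraries of 5 months, the mutants of both stocks included, called 136 genes, 89 of them among the 145. In 38 of the 145 genes the call held in each of the 6 fits that leave out 1 library.

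**Figure D1:**
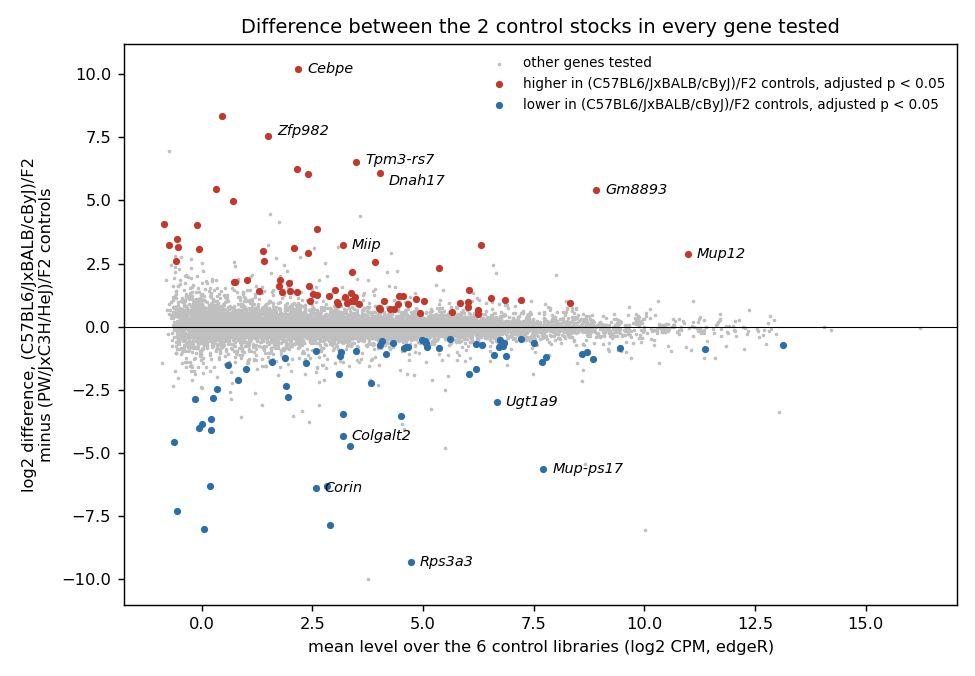
Each point is 1 of the 12445 genes tested, with its mean level over the 6 control libraries (log2 CPM) on the horizontal axis and the log2 difference between the stocks on the vertical axis. The 76 genes higher in GHRCON are red and the 69 lower are blue, and the widest gaps reach from genes of low level to the abundant Mup12. Fitted values of genes with 0 counts in a stock depend on the prior count of the fit.

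Several genes were transcribed in one stock and near or at 0 in the other. Cebpe (ENSMUSG00000052435, chromosome 14, 54710360 to 54712174 on GRCm38) encodes a transcription factor known for its role in maturing granulocytes. It had 6.06, 13.4 and 6.71 CPM in GHRCON livers, against 0 counts in all 3 SNELLCON livers. With a floor of 3 counts over the 3 libraries, that is at least 138-fold higher in GHRCON (edgeR adjusted p = 0.0128), and the call held without each library in turn. The 11 neutrophil markers summed to 3.23 to 4.41 CPM in GHRCON and 1.87 to 2.77 CPM in SNELLCON, with none of the 11 at 0 throughout; their part in the Cebpe difference was not tested. Corin (ENSMUSG00000005220, chromosome 5, 72300025 to 72504473), which encodes a protease best known for processing atrial natriuretic peptide in the heart, showed the opposite pattern. It had 0.227, 0.0549 and 0.118 CPM in GHRCON livers, against 12.3, 8.35 and 15.1 CPM in SNELLCON livers. The difference was -6.41 ± 0.41 (edgeR adjusted p = 0.000264) and held in every fit without 1 library.

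Further genes near absence in SNELLCON were Tpm3-rs7, Ctse and Dnah17. Tpm3-rs7, a tropomyosin-related sequence, had 15.9, 31.1 and 18.8 CPM in GHRCON livers, against 0.66, 0.0619 and 0 CPM in SNELLCON livers. Its difference of 6.52 ± 0.72 (edgeR adjusted p = 0.0190) was lost without SNELLCON 2 (adjusted p = 0.085) and with no filter on low counts (adjusted p = 0.0586). Ctse, encoding the aspartic protease cathepsin E, had 5.95, 15.7 and 3.59 CPM in GHRCON livers, against 0.066, 0.124 and 0.125 CPM in SNELLCON livers. The difference of 6.23 ± 0.85 (edgeR adjusted p = 0.0308) was lost without GHRCON 1 or any 1 SNELLCON library, with adjusted p up to 0.142, and with no filter on low counts (adjusted p = 0.0838). Dnah17, a gene of the dynein motors of cilia and flagella, had 40.2, 39.6 and 15.48 CPM in GHRCON livers, against 0.66, 0.371 and 0.374 CPM in SNELLCON livers. Its difference was 6.08 ± 0.55 (edgeR adjusted p = 0.00989), lost without SNELLCON 2 or SNELLCON 3 (adjusted p up to 0.0624). The fit of all 12 libraries also lost it (adjusted p = 0.113). Dnah17 overlaps Pgs1 in the genome and the strand of counting is not given in the sources used here, so reads of the pair may not be separable.

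Other genes also differed widely, and the rule that chose them required stocks without overlap. Nat8f5, an N-acetyltransferase-related gene, had 15.4, 8.83 and 9.24 CPM in GHRCON, against 0.726, 0.557 and 0.998 CPM in SNELLCON (3.87 ± 0.32, edgeR adjusted p = 0.000898). Lgals4, the gene of the sugar-binding protein galectin-4, had 10.5, 7.404 and 9.36 CPM in GHRCON, against 1.19, 0.805 and 1.62 CPM in SNELLCON (2.92 ± 0.27, adjusted p = 0.00166). Glt1d1, a predicted glycosyltransferase gene, had 27.9, 23.97 and 24.9 CPM in GHRCON, against 3.83, 5.38 and 3.99 CPM in SNELLCON (2.54 ± 0.16, adjusted p = 0.000264). All 3 genes were higher in GHRCON and kept their calls without each library in turn. Gas5, the spliced host of small nucleolar RNAs, had 15.2, 14.6 and 21.8 CPM in GHRCON, against 4.02, 3.59 and 3.87 CPM in SNELLCON (2.17 ± 0.19, edgeR adjusted p = 0.00117). In the other direction, Colgalt2, a collagen galactosyltransferase gene, had 0.453, 1.21 and 0.883 CPM in GHRCON, against 12.8, 21.4 and 18.3 CPM in SNELLCON (-4.35 ± 0.33, adjusted p = 0.000830). The calls of Gas5 and Colgalt2 also held without each library.

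Asic5, an ion channel gene of the acid-sensing family, had 2.38, 4.44 and 3.88 CPM in GHRCON, against 29.1, 36.1 and 60.8 CPM in SNELLCON. Its difference of -3.55 ± 0.36 (edgeR adjusted p = 0.0128) was lost without GHRCON 2 or GHRCON 3 (adjusted p up to 0.0648) and in the fit of all 12 libraries (adjusted p = 0.0539). Dct, a pigment gene that encodes dopachrome tautomerase, had 4.36, 3.46 and 7.002 CPM in GHRCON, against 21.4, 31.1 and 18.1 CPM in SNELLCON. The difference was -2.25 ± 0.30 (edgeR adjusted p = 0.0227), lost without GHRCON 1, GHRCON 2 or SNELLCON 1 (adjusted p up to 0.0883). Both genes were lower in every GHRCON library than in any SNELLCON library, as the rule that chose them required.

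Of the other genes chosen for large differences, Ajuba, a scaffold gene of cell junctions, was higher in GHRCON (1.59 ± 0.30, edgeR adjusted p = 0.0472), and the succinate receptor gene Sucnr1 was lower (-1.86 ± 0.29, adjusted p = 0.0414). The water channel gene Aqp8 was also lower (-1.16 ± 0.18, edgeR adjusted p = 0.0258). None of these 3 calls held in every fit without 1 library. Ajuba lost it in all but the fit without SNELLCON 1 (p up to 0.153), Sucnr1 in all but that without GHRCON 1 (p up to 0.128) and Aqp8 without any 1 GHRCON library or SNELLCON 1 (p up to 0.0896). In the fit of all 12 libraries Sucnr1 and Aqp8 had adjusted p of 0.203 and 0.341, and with no filter on low counts Sucnr1 had 0.122. The coagulation factor gene F11 had 77.5, 81.1 and 91.3 CPM in GHRCON, against 132.2, 168.3 and 130.4 CPM in SNELLCON (-0.78 ± 0.13, edgeR adjusted p = 0.0283, lost without GHRCON 1, GHRCON 2, SNELLCON 2 or SNELLCON 3 with p up to 0.0888, and at 0.0588 in the fit of all 12 libraries). With C4a it was 1 of 2 genes to pass among 45 tested genes of complement and coagulation (median -0.11, 13 with a positive difference).

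Genes with 0 counts in all 3 libraries of one stock were otherwise low or uneven in the other. Gm7658 had 4.02, 1.26 and 2.06 CPM in GHRCON, against 0 counts in SNELLCON, at least 38.6-fold higher (edgeR adjusted p = 0.0357, lost without GHRCON 3 or any 1 SNELLCON library with p up to 0.0905, and at 0.207 in the fit of all 12 libraries). Elobl had 0 counts in GHRCON, against 0.923, 1.42 and 1.19 CPM in SNELLCON, at least 20.7-fold lower (edgeR adjusted p = 0.0156, lost without SNELLCON 3, at an edgeR adjusted p of 0.0513). AK157302 had 0, 7.51 and 7.002 CPM in GHRCON, against 0 counts in SNELLCON. Sema3e, a guidance factor gene, had 0 counts in GHRCON, against 4.49, 9.34 and 0 CPM in SNELLCON. AK157302 and Sema3e were each missing in 1 library of the higher stock and did not reach the filter on low counts.

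**Figure D2:**
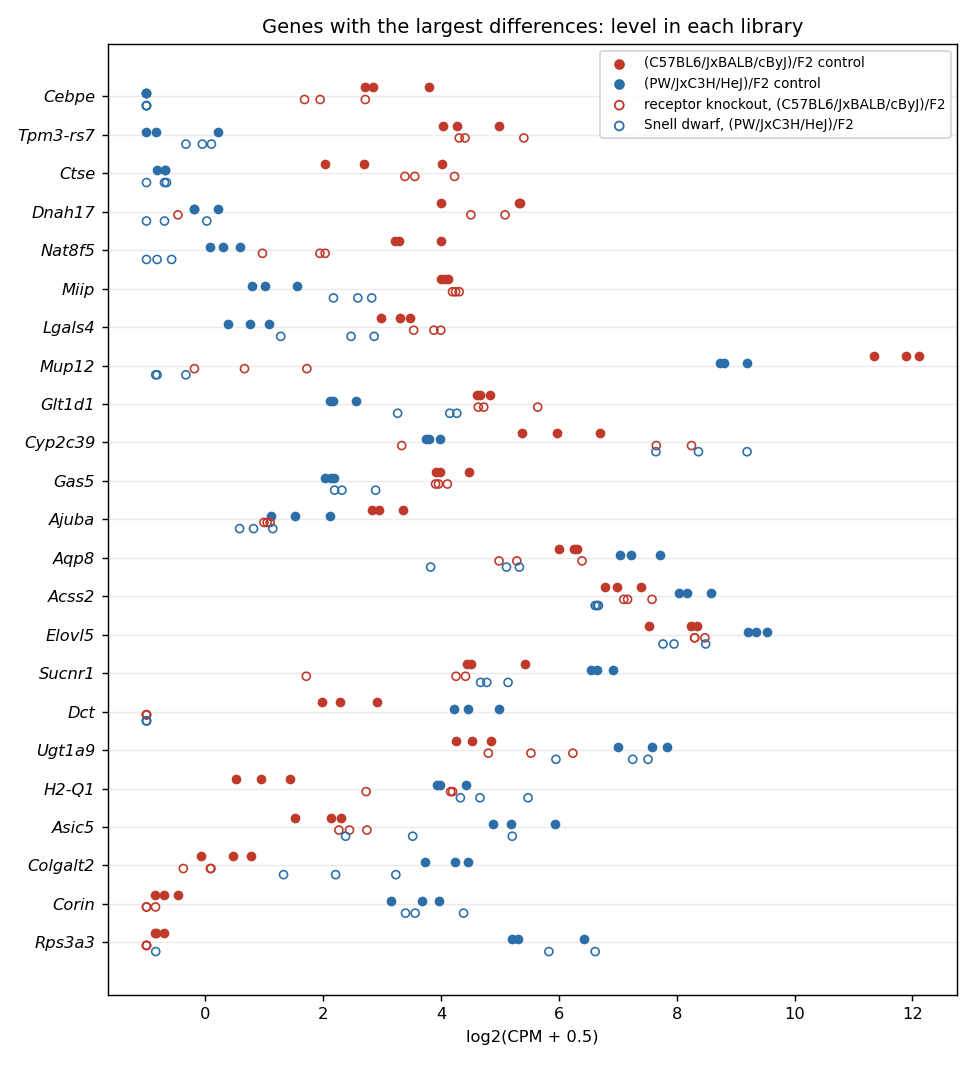
Each row is a gene chosen for its large difference, from the highest in GHRCON at the top to the lowest at the bottom, and the horizontal axis is log2(CPM + 0.5). Filled points are the 3 control libraries of each stock and open points the 3 mutant libraries. Red and blue filled points do not overlap in any row, because the choice of genes required it. The open points of Dct lie at 0 CPM in both mutants.

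Pseudogenes and genes with near-identical copies took a larger share of the 145 than of all genes tested, a comparison given as a description. Of 196 pseudogenes tested, 15 (7.65%) differed, 5 higher and 10 lower in GHRCON, against 119 of 11747 protein-coding genes (1.01%). A transcript at least 95% identical to that of a gene elsewhere was present for 15 of the 145 genes (10.3%) and for 434 of all genes tested (3.49%). A processed pseudogene arises when a messenger RNA is copied back into the genome, so its letters match the coding exons of the parent gene almost base for base. The stretches below, from GENCODE M21 transcripts on GRCm38, show parent and copy over 100 bases of coding sequence, 5′ to 3′, with the bases that differ in capitals.
Gm9800: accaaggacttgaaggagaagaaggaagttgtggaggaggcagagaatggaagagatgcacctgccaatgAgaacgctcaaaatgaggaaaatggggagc
Ptma: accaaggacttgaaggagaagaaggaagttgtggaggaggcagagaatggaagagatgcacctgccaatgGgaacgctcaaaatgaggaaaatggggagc
Rps3a3: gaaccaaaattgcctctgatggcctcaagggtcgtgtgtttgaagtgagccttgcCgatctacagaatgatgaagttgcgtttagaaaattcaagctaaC
Rps3a1: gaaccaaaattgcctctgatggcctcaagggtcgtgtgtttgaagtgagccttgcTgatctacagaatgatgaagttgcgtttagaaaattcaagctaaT
Tcea1-ps1: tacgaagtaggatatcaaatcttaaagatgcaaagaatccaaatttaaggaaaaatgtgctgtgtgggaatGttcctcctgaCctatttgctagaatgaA
Tcea1: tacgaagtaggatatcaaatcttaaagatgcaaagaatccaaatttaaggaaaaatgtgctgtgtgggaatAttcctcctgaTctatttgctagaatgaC

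Gm9800 (chromosome 14, 8800000 to 8800335, minus strand) is a copy of Ptma (chromosome 1, 86526726 to 86530712, plus strand), the prothymosin alpha gene. The 333 aligned bases differ at 1 position and by a gap of 2 bases, and 53.0% of all stretches of 100 bases, the read length of the study, are the same in both. Gm9800 had 0.623, 0.823 and 0.765 CPM in GHRCON, against 12.6, 23.0 and 24.1 CPM in SNELLCON (-4.74 ± 0.31, edgeR adjusted p = 0.000425). Its parent Ptma had 190.5, 203.5 and 207.1 CPM in GHRCON, against 122.3, 82.4 and 89.6 CPM in SNELLCON. Parent and copy thus differed in opposite directions (Ptma 1.04 ± 0.15, edgeR adjusted p = 0.0167, lost without GHRCON 2 or SNELLCON 3 with p up to 0.0654). Counts of such pairs are uncertain wherever the authors' counting could place a read at either gene.

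Rps3a3 (chromosome 13, 108670603 to 108671397, plus strand) is a copy of the ribosomal protein gene Rps3a1 (chromosome 3, 86137940 to 86142702, minus strand), with 8 differences over 791 aligned bases. It lies inside the gene Pde4d. Rps3a3 had 0.0567, 0.0548 and 0.118 CPM in GHRCON, against 36.2, 39.0 and 85.3 CPM in SNELLCON (-9.32 ± 0.67, edgeR adjusted p = 0.00400). Rps3a1 had 237.0, 209.4 and 318.9 CPM in GHRCON, against 199.7, 203.3 and 110.9 CPM in SNELLCON (adjusted p = 0.434). The Rps3a3 call held without each library but was lost in the fit of all 12 libraries (edgeR adjusted p = 0.187). SNELL livers, mutants of the same stock as SNELLCON, had 0.0574, 56.4 and 97.6 CPM of Rps3a3. SNELLCON 3 was both the highest library for the copy and the lowest for the parent. Tcea1-ps1 (chromosome 15, 90882615 to 90883518, plus strand) had 0 counts in all 3 GHRCON libraries and 1.25, 3.22 and 1.31 CPM in SNELLCON, which is at least 34.0-fold lower in GHRCON. Its edgeR adjusted p of 0.0315 was lost without GHRCON 1, GHRCON 2 or SNELLCON 3 (p up to 0.0624). Its parent Tcea1 (chromosome 1, 4857814 to 4897909, plus strand), a transcription elongation factor gene, had 52.8, 62.4 and 60.0 CPM in GHRCON, against 57.2, 53.0 and 53.4 CPM in SNELLCON (adjusted p = 0.7497).

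Copies higher in GHRCON included Gm10039 and Gm8893. Gm10039 (chromosome 11, 100361716 to 100362126) is 99.8% identical to the coding sequence of Atp5g1, a gene of the mitochondrial ATP synthase. It had 11.6, 5.59 and 4.88 CPM in GHRCON, against 0.528, 1.18 and 0.811 CPM in SNELLCON (3.12 ± 0.43, edgeR adjusted p = 0.0179, lost without SNELLCON 1 or SNELLCON 3 with p up to 0.0888). Gm8893 (chromosome 12, 103817856 to 103822243) is a relative of Serpina1a, an alpha-1-antitrypsin gene, and overlaps Serpina1b. It had 640.7, 632.6 and 1573 CPM in GHRCON, against 16.8, 26.5 and 22.8 CPM in SNELLCON (5.43 ± 0.50, edgeR adjusted p = 0.0128, lost without SNELLCON 2 or SNELLCON 3 with p up to 0.0693). Rps26-ps1 had 3 counts in all in GHRCON and 14.4, 14.5 and 15.8 CPM in SNELLCON. Its level in SNELLCON was 263 times that in GHRCON (95% counting interval 90.0 to 1280, edgeR adjusted p = 6.36e-05), a call lost in the fit of all 12 libraries (adjusted p = 0.133). SNELL livers, mutants of the same stock as SNELLCON, had 0.229, 0.266 and 18.35 CPM of Rps26-ps1, so low levels also occurred within that stock. Among the 145 genes, 2 identifiers have no entry in the annotation used here. One of them, ENSMUSG00000085214, had 147.4, 136.4 and 147.5 CPM in GHRCON, against 11.3, 18.6 and 15.6 CPM in SNELLCON (3.25 ± 0.17, edgeR adjusted p = 0.000167).

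The genes that differed lay near each other more often than the average tested gene did. Of 143 with a position, 47 (32.9%) had another within 1 Mb, against 2066 of 12384 tested genes (16.7%), a comparison given as a description. A run of 5 lay on chromosome 4, from 147492417 to 148160482, where 5 of 17 tested genes passed and all 5 were higher in GHRCON. Zfp982, a zinc finger gene, had 6.29, 5.87 and 3.83 CPM in GHRCON, against 0, 0 and 0.0623 CPM in SNELLCON. On the 1 count in SNELLCON the level in GHRCON was 252 times higher (95% counting interval 45.3 to 9970, edgeR adjusted p = 0.000553). Miip (147860778 to 147868816), encoding an inhibitor of cell migration and invasion, had 16.3, 15.6 and 16.8 CPM in GHRCON, against 1.52, 1.24 and 2.43 CPM in SNELLCON (3.23 ± 0.23, adjusted p = 0.000430). Fbxo44, a ubiquitin ligase subunit gene, had 2.49, 3.02 and 3.18 CPM in GHRCON, against 0.198, 0.0619 and 0 CPM in SNELLCON (4.98 ± 0.54, adjusted p = 0.00400). Zfp984 (4.03 ± 0.49, edgeR adjusted p = 0.00872) and Agtrap (1.39 ± 0.21, adjusted p = 0.0193), which encodes a protein that binds the angiotensin receptor, completed the run. Agtrap lost its call without GHRCON 1, GHRCON 2, SNELLCON 2 or SNELLCON 3 (adjusted p up to 0.0674), and the other 4 kept theirs without each library. Between them lay genes that did not pass, among them Fv1, a gene of resistance to murine leukaemia virus (2.00 ± 0.44, edgeR adjusted p = 0.0784), Zfp979 (1.10 ± 0.65, adjusted p = 0.554), Mfn2 (0.27 ± 0.10, adjusted p = 0.283) and the chloride transporter gene Clcn6 (-0.72 ± 0.16, adjusted p = 0.0779).

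Another run crossed the major histocompatibility complex on chromosome 17, from 34809092 to 36121465, with 6 of 63 tested genes, 4 higher and 2 lower in GHRCON. The class I genes of this complex present peptides to T cells, and their number and sequence vary between mouse strains. H2-Q1 had 2.21, 1.43 and 0.942 CPM in GHRCON, against 14.8, 15.2 and 20.9 CPM in SNELLCON (-3.46 ± 0.29, edgeR adjusted p = 0.00107). H2-Q5 had 6.23, 3.89 and 3.06 CPM in GHRCON, against 0.396, 0.805 and 0.437 CPM in SNELLCON (2.99 ± 0.39, adjusted p = 0.0121). H2-T10 had 5.95, 4.66 and 4.71 CPM in GHRCON, against 1.25, 1.73 and 1.31 CPM in SNELLCON (1.83 ± 0.23, adjusted p = 0.0113). The calls of H2-Q1, H2-Q5 and H2-T10 held without each library, but that of H2-Q5 was lost in the fit of all 12 libraries (edgeR adjusted p = 0.0608). H2-Q5 and H2-T10 are annotated as polymorphic pseudogenes and are also counted among the 15 pseudogenes that passed. Gm11127 (6.03 ± 0.68, edgeR adjusted p = 0.0126) lost its call without SNELLCON 2 or SNELLCON 3 (p up to 0.0674), and H2-Bl (-3.67 ± 0.62, adjusted p = 0.0340) without 5 of the 6 libraries, all but GHRCON 2 (p up to 0.0935). The complement gene C4a (0.93 ± 0.16, adjusted p = 0.0331), which is 96.0% identical to C4b over the aligned bases, lost its call without GHRCON 1, GHRCON 2, SNELLCON 1 or SNELLCON 3 (p up to 0.0941). In the fit of all 12 libraries H2-Bl had an adjusted p of 0.156 and C4a of 0.270. Of 25 tested genes of class I and peptide loading, 2 were higher and 2 lower, with a median of 0.05, against a median of 0.01 over all genes. An unadjusted p under 0.05 was reached by 10 of the 25, against 12.6% of all genes. The stocks did not overlap in 13 of the 25, against 18.4% of all genes. Of 9 class II genes 0 passed, 1 had an unadjusted p under 0.05 and the median was 0.36. The peptide transporters and proteasome subunits of this pathway did not pass, for example Tap1 (0.12) and Psmb8 (0.01).

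**Figure D3:**
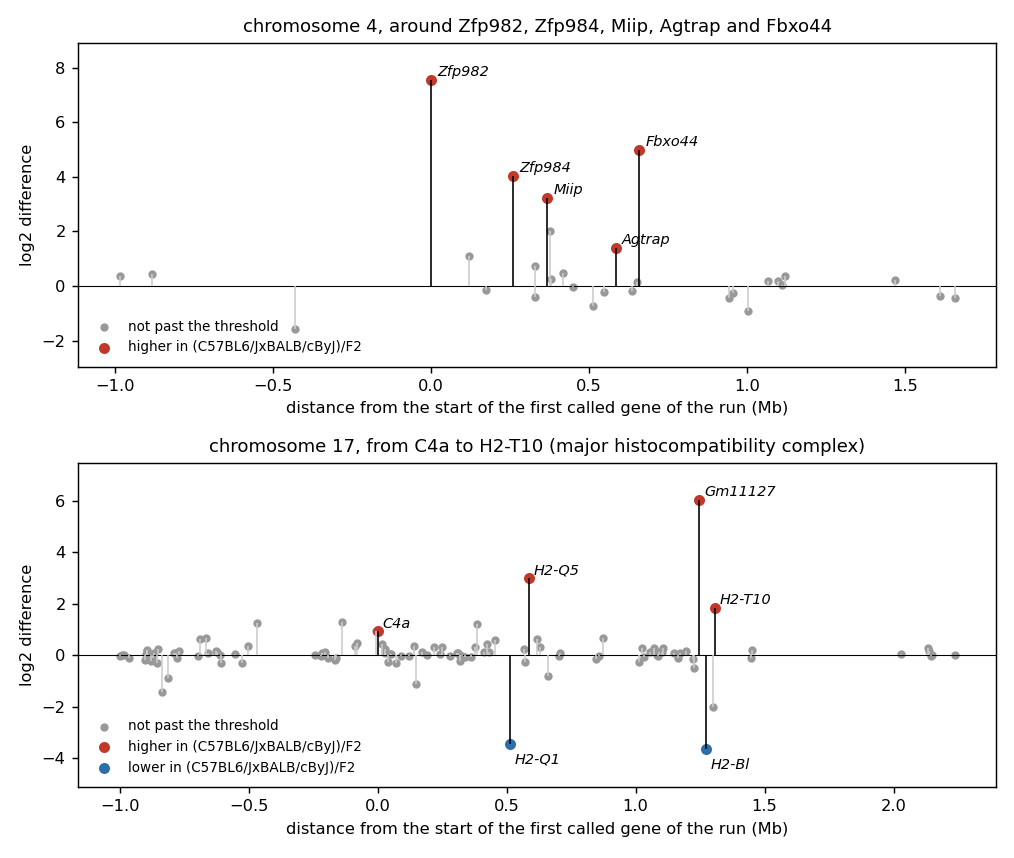
Each stem is a tested gene, placed by the distance of its start from that of the first gene of the run (Mb, horizontal axis), and its height is the log2 difference between the stocks. On chromosome 4 the 5 coloured genes all point upward, with grey genes on both sides of 0 between them, and on chromosome 17 the 6 coloured genes point both ways.

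The major urinary proteins, secreted by the male liver, showed 1 member against the direction of the others. Of 19 tested members 18 had a negative difference (median -0.77), but only 2 passed, Mup3 downward and Mup12 upward. Mup12 had 2599, 3788 and 4420 CPM in GHRCON, against 426.2, 444.6 and 587.2 CPM in SNELLCON (2.90 ± 0.23, edgeR adjusted p = 0.000898), and its call held without each library. Mup3 had 6552, 6807 and 7117 CPM in GHRCON, against 10300, 11930 and 12060 CPM in SNELLCON (-0.74 ± 0.13, adjusted p = 0.0357). The Mup3 call was lost without any 1 library other than GHRCON 3 (p up to 0.132) and in the fit of all 12 libraries (adjusted p = 0.564). The first 100 coding bases of Mup12 and its closest relative Mup1, both on the minus strand of chromosome 4 (60737383 to 60741326 and 60498012 to 60501960), hold both bases at which their 540 coding bases differ.
Mup12: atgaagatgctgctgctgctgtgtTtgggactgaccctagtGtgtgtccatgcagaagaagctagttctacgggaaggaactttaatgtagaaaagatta
Mup1: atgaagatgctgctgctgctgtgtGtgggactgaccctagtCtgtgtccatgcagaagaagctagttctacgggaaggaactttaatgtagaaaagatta

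Mup1 had 680.5, 834.5 and 1182 CPM in GHRCON, against 1511, 1675 and 1328 CPM in SNELLCON (-0.74 ± 0.20, edgeR adjusted p = 0.155). Values of single members are uncertain, since 90.5% of the stretches of 100 coding bases are the same in Mup1 and Mup12. The summed level of the 21 Mup genes in the table was 24850 to 43950 CPM in GHRCON, against 38040 to 56240 CPM in SNELLCON, so the stocks overlapped. The related pseudogene Mup-ps17 had 4.76, 12.2 and 7.77 CPM in GHRCON, against 386.2, 393.3 and 475.4 CPM in SNELLCON (-5.66 ± 0.36, edgeR adjusted p = 0.00140).

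A list of transcripts known to be higher in male than in female liver, which also holds Mup3, had mostly negative differences. Of 23 tested genes of this kind 20 had a negative difference (median -0.69), against 48.7% of all genes, and 14 had an unadjusted p under 0.05, against 12.6%. Their summed level was 16870 to 20360 CPM in GHRCON, against 37100 to 42900 CPM in SNELLCON, without overlap. Abundant members weigh most in this sum, so it does not measure a shift of the whole list. Mup3, for example, had a mean of 6825 CPM in GHRCON and 11430 CPM in SNELLCON, which is only part of the gap between the sums. Of the 23, 3 passed, Slco1a1 and Mup3 lower and C4a higher. Slco1a1, a bile acid and organic anion transporter gene, had 452.0, 579.8 and 484.1 CPM in GHRCON, against 917.8, 795.6 and 993.5 CPM in SNELLCON (-0.83 ± 0.14, edgeR adjusted p = 0.0317). Its call was lost without GHRCON 1, SNELLCON 1 or SNELLCON 3 (p up to 0.0995) and in the fit of all 12 libraries (adjusted p = 0.739). Elovl3, a fatty acid elongase gene of this list, had 49.6, 76.1 and 104.5 CPM in GHRCON, against 408.1, 206.4 and 240.2 CPM in SNELLCON, without overlap and with an edgeR adjusted p of 0.101. Of 14 tested female-biased genes 0 passed, 3 had an unadjusted p under 0.05 and the median was 0.55. Genes of the growth hormone and IGF axis did not pass either: 0 of 16, with 2 at an unadjusted p under 0.05 and a median of -0.16. Igf1, the hormone made by liver under growth hormone, had 537.1, 651.6 and 467.6 CPM in GHRCON, against 640.8, 696.7 and 614.7 CPM in SNELLCON (-0.23 ± 0.14, adjusted p = 0.554). Ghr, the receptor, had 612.4, 616.0 and 435.8 CPM in GHRCON, against 690.1, 689.9 and 647.9 CPM in SNELLCON (-0.28 ± 0.15, edgeR adjusted p = 0.483).

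Of the enzymes that process drugs and other foreign compounds, 1 member passed in each of 4 lists. Ugt1a9, which attaches glucuronic acid, had 22.4, 28.2 and 18.5 CPM in GHRCON, against 127.3, 190.3 and 227.2 CPM in SNELLCON (-2.97 ± 0.26, edgeR adjusted p = 0.00400). Its call held without each library, and it was the only 1 of 16 tested glucuronosyltransferase genes to pass, with 7 at an unadjusted p under 0.05 and a list median of 0.28. Ugt1a9 shares its last exons with its neighbours of the Ugt1a locus, among them Ugt1a1, which had 104.4, 120.0 and 88.4 CPM in GHRCON, against 69.2, 39.0 and 42.2 CPM in SNELLCON (adjusted p = 0.0971). Of 52 tested cytochrome P450 genes of families 1 to 4 only Cyp2c39 passed, with 13 at an unadjusted p under 0.05 and a list median of -0.01. It had 103.1, 61.9 and 41.0 CPM in GHRCON, against 13.4, 15.3 and 12.8 CPM in SNELLCON (2.31 ± 0.35, edgeR adjusted p = 0.0468, lost without GHRCON 2 or any 1 SNELLCON library with p up to 0.169). Its adjusted p was 0.448 in the fit of all 12 libraries and 0.127 with no filter on low counts. The carboxylesterase gene Ces1e (-1.02 ± 0.17, edgeR adjusted p = 0.0355) and the sulfotransferase gene Sult1b1 (-0.61 ± 0.10, adjusted p = 0.0337) were each the only member of their lists to pass, of 14 and 7 tested with 3 each at an unadjusted p under 0.05. Ces1e lost its call without GHRCON 2 or any 1 SNELLCON library (p up to 0.106), and Sult1b1 without GHRCON 1, GHRCON 2, SNELLCON 1 or SNELLCON 3 (p up to 0.118). None of 19 glutathione transferase genes passed, with 4 at an unadjusted p under 0.05. Nr1i3, encoding the constitutive androstane receptor that switches on many of these enzymes, had 51.2, 40.8 and 38.3 CPM in GHRCON, against 20.2, 18.01 and 27.0 CPM in SNELLCON (1.004 ± 0.17, adjusted p = 0.0357). That call was lost without GHRCON 1, GHRCON 2, SNELLCON 1 or SNELLCON 2 (p up to 0.118) and in the fit of all 12 libraries (adjusted p = 0.115).

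Acss2, which makes acetyl-CoA from acetate, had 109.3, 167.4 and 126.4 CPM in GHRCON, against 289.0, 261.0 and 384.8 CPM in SNELLCON (-1.21 ± 0.20, edgeR adjusted p = 0.0350). Elovl5, an elongase of polyunsaturated fatty acids, had 301.9, 325.8 and 183.3 CPM in GHRCON, against 653.9, 590.7 and 738.5 CPM in SNELLCON (-1.28 ± 0.21, adjusted p = 0.0355). Bhmt, the betaine-homocysteine methyltransferase, had 1882, 1630 and 2051 CPM in GHRCON, against 3539, 3745 and 3173 CPM in SNELLCON (-0.90 ± 0.14, adjusted p = 0.0203). The 3 genes, like all 145 that passed, did not overlap between stocks, but each lost its call in 4 of the 6 fits without 1 library. These were the fits without GHRCON 1, GHRCON 3, SNELLCON 1 or SNELLCON 3 for Acss2 (p up to 0.0931), without GHRCON 1 or any 1 SNELLCON library for Elovl5 (p up to 0.106), and without GHRCON 1, GHRCON 2, SNELLCON 1 or SNELLCON 2 for Bhmt (p up to 0.0788, and 0.0854 in the fit of all 12 libraries). Elovl5 and Bhmt were each the only gene of a metabolic list to pass. Elovl5 was 1 of 27 tested lipogenesis genes (median -0.03, 10 at an unadjusted p under 0.05), and Bhmt 1 of 36 genes of amino acid metabolism and the urea cycle (median -0.09, 9 at an unadjusted p under 0.05). No gene of cholesterol synthesis (26 tested, median -0.06), fatty acid oxidation and ketogenesis (33 tested, median 0.21) or glucose synthesis and glycolysis (26 tested, median 0.06) passed. At an unadjusted p under 0.05 these lists held 4, 8 and 2 genes. In the same order, 12, 27 and 17 of their tested genes had a positive difference, against 51.3% of all genes.

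Few genes of the housekeeping and stress lists passed. None of 76 nuclear respiratory chain genes passed (median -0.04, 2 at an unadjusted p under 0.05), nor did any of 38 proteasome subunits (median 0.12, 3 genes), 22 chaperones of the endoplasmic reticulum (median -0.05, 4 genes), 20 NRF2 targets (median 0.17, 5 genes) or 19 clock genes (median -0.11, 4 genes). In the same order, 20, 34, 7, 13 and 7 genes of these lists had a positive difference, against 51.3% of all genes. Of 78 ribosomal protein genes 2 were lower in GHRCON, with a list median of 0.02 and a positive difference in 55. Rpl30 had 77.6, 66.0 and 86.0 CPM in GHRCON, against 126.8, 130.2 and 149.6 CPM in SNELLCON (-0.82 ± 0.12, edgeR adjusted p = 0.0198, lost without GHRCON 1, GHRCON 2 or SNELLCON 3 with p up to 0.0631). Rpl35a (-0.65 ± 0.11, edgeR adjusted p = 0.0357) lost its call without any 1 library other than GHRCON 3 (p up to 0.106) and in the fit of all 12 libraries (adjusted p = 0.388). In the interferon response list 40 of 49 tested genes had a positive difference (median 0.29), against 51.3% of all genes, but 0 passed and 2 had an unadjusted p under 0.05.

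Several genes of mesenchymal and immune cells were higher in GHRCON; these were chosen after their values were seen. Vim, encoding the filament protein of mesenchymal cells, had 24.8, 23.8 and 23.1 CPM in GHRCON, against 13.9, 14.8 and 15.1 CPM in SNELLCON (0.71 ± 0.10, edgeR adjusted p = 0.0167, lost without GHRCON 1, SNELLCON 1 or SNELLCON 2 with p up to 0.0678, and at 0.123 in the fit of all 12 libraries). Gsn (1.21 ± 0.22), Ccn2 (1.63 ± 0.29), Col6a2 (1.29 ± 0.23) and Adamts2 (1.36 ± 0.25), genes of the cytoskeleton and the matrix, had edgeR adjusted p values of 0.0493, 0.0392, 0.0403 and 0.0403. Each of these 4 calls was lost in at least 5 of the 6 fits without 1 library: for Gsn all but that without SNELLCON 1 (p up to 0.153), for Ccn2 all but that without GHRCON 2 (p up to 0.117), for Adamts2 all but that without GHRCON 1 (p up to 0.129), and for Col6a2 all 6 (p up to 0.129). The 13 markers of stellate cells and fibroblasts summed to 373.9 to 510.2 CPM in GHRCON and 384.0 to 423.4 CPM in SNELLCON; 0 of 13 passed, 6 had an unadjusted p under 0.05 and the median was 0.60. The 8 bile duct markers summed to 39.5 to 74.4 CPM in GHRCON and 30.1 to 41.8 CPM in SNELLCON. Of 7 tested bile duct markers 0 passed, 3 had an unadjusted p under 0.05 and the median was 0.84. No member of either list was at 0 throughout, and their part in the differences of Vim and the other matrix genes was not tested. In bulk liver, fewer cells of a type and less RNA per cell cannot be told apart.

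Cx3cr1, a chemokine receptor gene of monocytes and macrophages, had 1.59, 2.63 and 2.24 CPM in GHRCON, against 0, 0.0619 and 0.0623 CPM in SNELLCON. On the 2 counts in SNELLCON the level in GHRCON was 51.0 times higher (95% counting interval 14.1 to 421, edgeR adjusted p = 0.00343), and the call held without each library. Its annotated span overlaps Wdr48, Gorasp1, Csrnp1 and Xirp1. Tnfrsf1b, a receptor of tumour necrosis factor, had 35.8, 31.8 and 31.5 CPM in GHRCON, against 19.0, 17.1 and 17.3 CPM in SNELLCON (0.90 ± 0.10, edgeR adjusted p = 0.00673), and also held without each library, but not in the fit of all 12 libraries (adjusted p = 0.173). The 15 markers of Kupffer cells and macrophages summed to 289.9 to 524.8 CPM in GHRCON and 420.6 to 554.5 CPM in SNELLCON, and the 22 of lymphocytes and natural killer cells to 33.7 to 40.4 CPM and 37.9 to 70.9 CPM. Of the 15 macrophage markers 0 passed, 2 had an unadjusted p under 0.05 and 4 had a positive difference (median -0.18), a sign opposite to those of Cx3cr1 and Tnfrsf1b; of the 7 lymphocyte markers tested 5 had a positive difference (median 0.13). Both marker sums overlapped between the stocks, no marker was at 0 throughout, and their part in the differences of Cx3cr1 and Tnfrsf1b was not tested.

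The same contrast between stocks can be read in the mutants, which share no library with the controls but add 2 mutations. GHRKO mice lack the growth hormone receptor, and Snell dwarf mice carry a mutation in the pituitary factor Pou1f1 and so lack growth hormone, prolactin and thyrotropin. Ghr, the gene targeted in GHRKO, had 55.4, 76.5 and 84.4 CPM in GHRKO livers, against 400.9, 420.7 and 510.8 CPM in SNELL livers. Between GHRKO and SNELL, 652 of 12573 genes (5.19%) differed, 373 (2.97%) higher and 279 (2.22%) lower in GHRKO. Of the 145 genes of the control comparison, 118 were tested here. The other 27, such as Dct, did not reach the filter on low counts in the mutants, so the shares below do not cover them. In 97 of the 118 the sign was the same, against 60.1% of the 12111 genes tested in both comparisons. Of the 118, 42 (35.6%) passed in the same direction, 29 of 65 that were higher and 13 of 53 that were lower in GHRCON, and 2 passed in the opposite direction. Of the 53 genes with a control difference of at least 2 on the log2 scale, only 29 were tested in the mutants. Of these 29, 28 had the same sign and 19 passed the same way. Where the control difference was smaller, 69 and 23 of 89 tested genes did so. SNELL 1 held 472.6 CPM of 9 skeletal muscle markers, against at most 21.2 CPM in the other 5 mutant libraries. Without SNELL 1, 40 of 130 tested genes passed in the same direction, where 4.20% of all genes passed. The mutant count fell to 355 without GHRKO 1 and to 286 without GHRKO 2, where 34 and 33 of the control genes passed in the same direction.

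Among genes with the same direction in both, Corin stood at 0, 0.0560 and 0 CPM in GHRKO livers, against 11.3, 10.0 and 20.4 CPM in SNELL livers. Cebpe had 2.71, 3.36 and 6.06 CPM in GHRKO livers and 0 counts in all SNELL livers. Snap47, a gene of the SNAP family of membrane fusion proteins, had 79.6, 78.0 and 78.0 CPM in GHRKO livers, against 26.1, 22.1 and 34.3 CPM in SNELL livers. In the controls Snap47 had 100.5, 85.3 and 105.3 CPM in GHRCON, against 38.1, 38.2 and 31.2 CPM in SNELLCON, so the difference was 1.53 in the mutants and 1.44 in the controls (edgeR adjusted p = 0.000878 and 0.00107). Metap1d, a mitochondrial methionine aminopeptidase gene, differed by 1.20 in the mutants and by 1.23 in the controls (edgeR adjusted p = 0.00229 and 0.00400). Mup12 had 1.08, 2.80 and 0.379 CPM in GHRKO livers, against 0.0574, 0.0664 and 0.295 CPM in SNELL livers, levels far below those of the controls. It did not reach the filter on low counts in the mutants and was not tested there.

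Of the 21 genes with opposite signs, the 2 that passed in both comparisons were Acss2 and Slc23a1. Slc23a1, a vitamin C transporter gene, had 62.7, 59.7 and 60.7 CPM in GHRCON, against 99.0, 104.4 and 101.0 CPM in SNELLCON (-0.73 ± 0.08, edgeR adjusted p = 0.00673). In the mutants it had 46.3, 52.9 and 61.0 CPM in GHRKO, against 24.6, 32.4 and 21.2 CPM in SNELL. The test of the difference itself, a fit of all 12 libraries added after the data were seen, gave -1.78 for Slc23a1 (adjusted p = 0.000726). Over all genes that test called 152 of 13105 (1.16%), of which 10 were among the 145. The others of these 10 were Ildr2, Gsn, Acss2, Miip, Rasl11b, Cox18, Elovl5, Col6a2 and Igha.

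**Figure D4:**
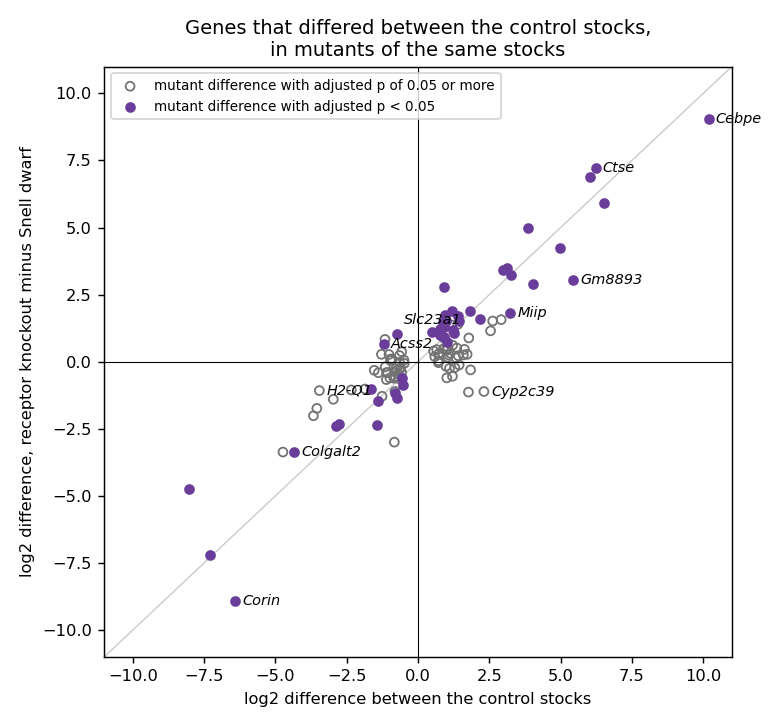
Each point is 1 of the 118 genes that differed between the control stocks and were also tested between the mutants, with the log2 difference GHRCON minus SNELLCON on the horizontal axis and GHRKO minus SNELL on the vertical axis. Filled points passed in the mutants; 97 of 118 points share a sign, and Acss2 and Slc23a1 are the filled points at the upper left.

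Levels in 2 further groups of untreated males placed some of these genes beside known strains: UM-HET3 mice of 6 months (a cross of BALB/cByJ, C57BL/6J, C3H/HeJ and DBA/2J) and C57BL6/J mice of 14 months on another diet. Ages and diets differ, so the levels are given side by side without a test. Cebpe had 10.5, 13.9 and 15.7 CPM in C57BL6/J livers, and 3.98, 0 and 0 CPM in UM-HET3 livers. Tpm3-rs7 had 0, 0 and 0.0575 CPM in C57BL6/J livers, below all GHRCON livers, and 6.62, 0.0392 and 0.0325 CPM in UM-HET3 livers. Ctse likewise stayed at or below 0.517 CPM in C57BL6/J livers and had 12.2, 30.2 and 42.1 CPM in UM-HET3 livers. Corin stayed at or below 0.977 CPM in C57BL6/J livers and had 17.2, 13.6 and 13.5 CPM in UM-HET3 livers. Dnah17 was at or below 0.606 CPM in both groups, below every GHRCON liver.

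Other genes did not pass between the stocks but varied widely between libraries of one stock, and are given as a description. Of these, H2-K1 and Serpina1e had no overlap in CPM between the stocks. H2-K1, a classical class I gene, had 17.3, 667.9 and 559.3 CPM in GHRCON, against 767.8, 708.6 and 818.4 CPM in SNELLCON. In GHRKO livers H2-K1 had 828.2, 25.2 and 21.1 CPM, so both low and high levels occurred in the (C57BL6/JxBALB/cByJ)/F2 stock. Nnt had 51.2, 129.9 and 72.7 CPM in GHRCON, against 110.5, 116.3 and 127.3 CPM in SNELLCON, while C57BL6/J livers had 51.3, 59.4 and 57.8 CPM. GHRCON 1 was therefore at the level of C57BL6/J livers and GHRCON 2 above every SNELLCON liver. Serpina1e, an alpha-1-antitrypsin gene, had 2097, 2347 and 23.5 CPM in GHRCON, against 14810, 17420 and 14450 CPM in SNELLCON. Cyp2a4, a steroid hydroxylase gene, had 65.0, 2.41 and 0.235 CPM in GHRCON, against 0.857, 1.55 and 0.811 CPM in SNELLCON. Transcripts of Serpina1e and Cyp2a4 are 96.1% and 98.2% identical to those of Serpina1b and Cyp2a5, so their values are uncertain.

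In SNELLCON wide steps were found in Hamp2, Ftl1-ps1, Mup9, Eno1b and Cyp46a1. Hamp2, a relative of the iron hormone hepcidin, had 12.7, 6.47 and 3.94 CPM in GHRCON, against 2057, 4.70 and 4175 CPM in SNELLCON. Ftl1-ps1, a pseudogene of ferritin light chain, had 20.7, 18.04 and 17.1 CPM in GHRCON, against 1101, 13.8 and 1299 CPM in SNELLCON. Both genes were low in SNELLCON 2 and high in the other SNELLCON livers. The parent gene Ftl1 had 3216, 2739 and 2903 CPM in GHRCON, against 979.4, 2273 and 1086 CPM in SNELLCON, where SNELLCON 2 was the highest. Cyp46a1, a cholesterol hydroxylase gene known from brain, had 4.99, 2.63 and 1.82 CPM in GHRCON, against 2.70, 164.4 and 96.3 CPM in SNELLCON. Mup9 had 1631, 2921 and 3846 CPM in GHRCON, against 4609, 5426 and 65.5 CPM in SNELLCON. The Mup9 transcript is 99.1% identical to that of Mup8 over 908 aligned bases, so its values are uncertain. Of other genes with known strain variants, Glo1, encoding glyoxalase 1, had 1311, 949.0 and 941.8 CPM in GHRCON, against 819.3, 781.1 and 793.5 CPM in SNELLCON (0.43 ± 0.15, edgeR adjusted p = 0.262), and Hc, encoding complement C5, had 627.9, 752.7 and 862.7 CPM in GHRCON, against 948.9, 219.2 and 726.6 CPM in SNELLCON (adjusted p = 0.910). Eno1b, an enolase gene, had wide steps in both stocks, with 0.113, 38.6 and 67.5 CPM in GHRCON, against 0.066, 29.8 and 36.7 CPM in SNELLCON (edgeR adjusted p = 0.935). Its transcript is 99.45% identical to that of Eno1 over 1652 aligned bases, so reads of the pair may not be separable. Eno1 had 511.9, 404.4 and 263.7 CPM in GHRCON, against 424.9, 315.2 and 378.1 CPM in SNELLCON. None of the genes with steps passed between the stocks, with edgeR adjusted p of 0.322 for Hamp2, 0.322 for Ftl1-ps1, 0.339 for Cyp46a1, 0.973 for Mup9, 0.850 for H2-K1, 0.651 for Nnt, 0.486 for Serpina1e and 0.512 for Cyp2a4.

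**Figure D5:**
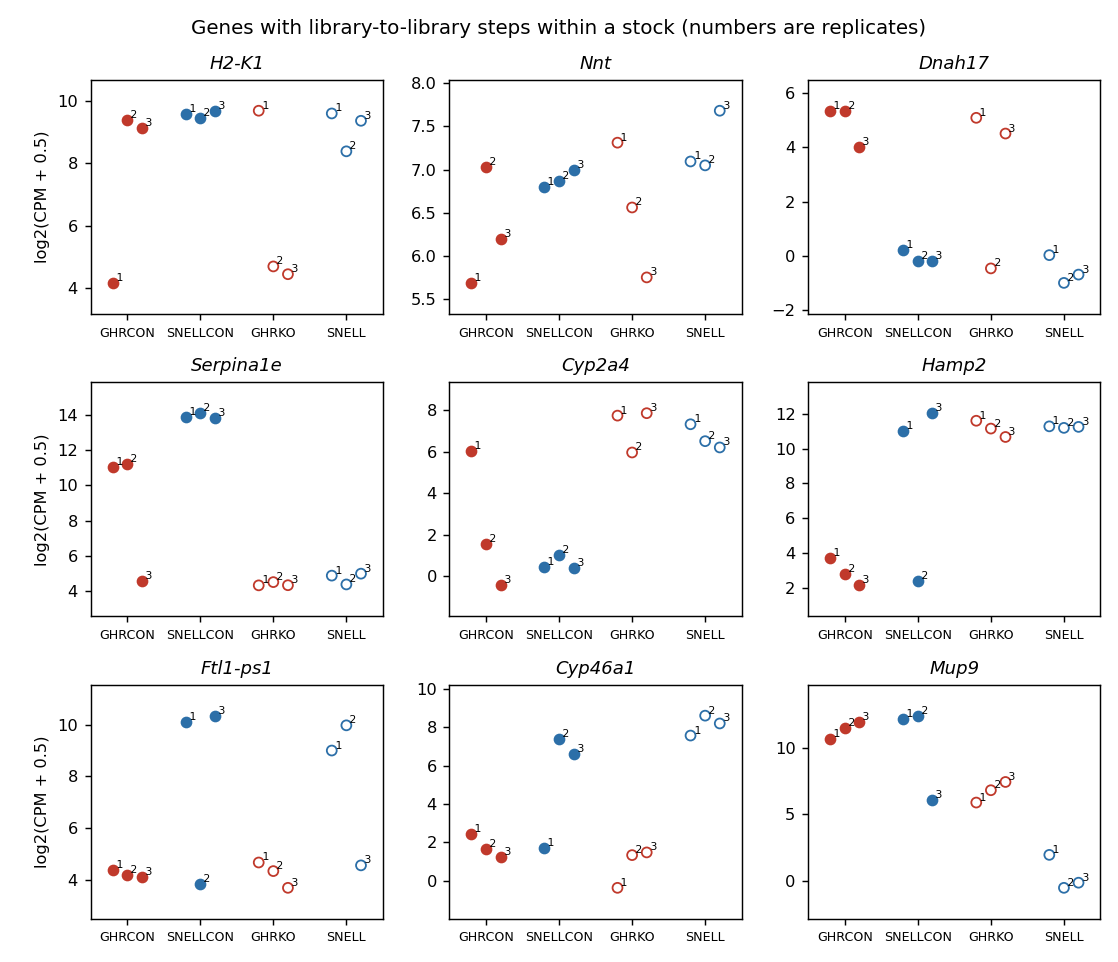
Each panel is 1 gene, with log2(CPM + 0.5) on the vertical axis and the 3 numbered libraries of GHRCON, SNELLCON, GHRKO and SNELL from left to right; filled points are controls and open points mutants. H2-K1 and Serpina1e show a low library within GHRCON, and Hamp2, Ftl1-ps1, Cyp46a1 and Mup9 a low library within SNELLCON, while Dnah17 was low in GHRKO 2.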

How the data were processed

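RNA-seq of mouse liver was analysed from raw gene counts deposited by the authors, 1 table of 43629 gene identifiers by 78 libraries. Per the submitters' processing notes, tools were bcl2fastq 1.8.4, Trimmomatic 0.32, STAR 2.5.2b and featureCounts 1.5, on GRCm38/mm10; the strand of counting and treatment of multi-mapping reads are not given in the sources used here, and both affect overlapping genes and copies. Names and positions came from GENCODE M21 for 42548 identifiers. Groups follow the labels, and replicates are biological per the study's design text.

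Counts were tested with edgeR 4.0.16 in R 4.3.3 (TMM, filterByExpr, quasi-likelihood test, Benjamini-Hochberg over all genes tested). CPM were scaled by TMM over 18 libraries, and figures add 0.5. Intervals and floors (3 counts over a group's libraries) cover counting error only. Near-identical copies had at least 95% identity over 80% of the shorter transcript and 50% of their own. On simulated counts for 12445 genes, 200 of them changed, the test recovered 61% of 2-fold and 90% of 4-fold changes, and 9.58% of calls were false. Alternatives were size factors, no filter, DESeq2 1.42.0, a replicate block, all 12 libraries of 5 months and leaving out each library.

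The rule for genes named in the text took the 12 widest differences each way among eligible genes. Eligible genes passed, had non-overlapping groups, averaged a log2 CPM of 2 or more and had a plain symbol. Predicted, clone and pseudogene symbols and missing ones were left out. Wide differences such as those of Gm8893, Rps26-ps1 and Mup-ps17 were therefore not ranked. The rule also added up to 3 members of each list and up to 6 genes each way with 0 counts in a stock. The 5 widest ranges within each stock (average log2 CPM of 3 or more) and a set of strain-variant and control genes completed the rule. A gene that this rule names is not reported here. Others, including all copies, matrix and immune genes, runs on chromosomes 4 and 17, Snap47 and Metap1d, were chosen after their values were seen. Members and lists were chosen with earlier results of these data known.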

Additional observations from a re-analysis of the deposited data

Results flagged for a closer look

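The stock difference was compared between controls and mutants for each named gene, as the log2 difference GHRCON minus SNELLCON less the log2 difference GHRKO minus SNELL (1 edgeR fit of 12 libraries, adjusted over all genes). It was past the threshold for 4 of them. Ghr gave 2.32 (SE 0.24, adjusted p = 0.000368), and this is the gene targeted in GHRKO. Acss2 gave -1.88 (SE 0.26, adjusted p = 0.00383), with 136.8, 191.0 and 143.2 CPM in GHRKO livers, against 97.6, 101.4 and 99.7 CPM in SNELL livers. Elovl5 gave -1.57 (SE 0.30, adjusted p = 0.0267). Miip gave 1.42 (SE 0.30, adjusted p = 0.0433): it was higher in GHRCON than in SNELLCON and in GHRKO than in SNELL, with 19.3, 18.5 and 17.8 CPM in GHRKO livers, against 5.51, 6.58 and 4.01 CPM in SNELL livers.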

How the results depend on the processing

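The number of genes that differed between the control stocks, 145, was 147 with other size factors and 136 in the fit of all 12 libraries of 5 months. It was 384 (197 higher, 187 lower in GHRCON) with no filter on low counts and 462 (207 higher, 255 lower) with DESeq2; these fits tested more genes. Without 1 library the count ranged from 77 to 212, with 32 to 117 genes higher and 38 to 95 lower. Between 57 and 114 of the 145 passed again in those fits, and none passed in the opposite direction. All 11 alternatives were passed by 29 of the 145 genes and by 14 of 40 named ones. With the replicate number as a block 75 genes passed (41 higher, 34 lower), of which 62 were among the 145. Libraries of the same number share only a number: their deviations correlated at -0.05, 0.16 and 0.01, and not every library correlated best with its own number. Between the mutants, 652 genes passed, 1040 with DESeq2, 569 with the replicate block and 286 to 583 without 1 library; the causes were not tested. With 3 livers per stock, 61% of simulated 2-fold changes were recovered.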
